A study of Mus musculus with 48 samples.

Results

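The cornified envelope genes of the mouse epidermal differentiation complex were followed through 48 bulk RNA-seq libraries of epidermis. Members were all rows of the deposited count table whose mouse symbol, matched from the Entrez ID, begins with Lce or Sprr, together with Lor, Ivl, Flg, Flg2, Hrnr, Rptn, Crnn, Tchh and Kprp, provided that the row held at least 1 read. Of 45 symbols that matched, 44 held reads, among 23481 gene IDs with reads in all. Sprr3 was at 0 counts in all 48 libraries. Of the 44 members, 32 passed the filter on low counts and were tested, and the other 12 are described by level alone.

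The libraries came from poly(A) RNA of epidermal cell suspensions prepared from skin of mice 47 weeks old, labelled either ColXIV KO or ColXIV WT, where ColXIV is collagen XIV, encoded by Col14a1. Skin was taken at Zeitgeber time (ZT, hours of the lighting cycle) 0, 4, 8, 12, 16 and 20, which gave 12 groups of label and time with 4 libraries each, described as biological replicates. The labels state neither strain nor sex, nor how the deletion was made, and the difference between the labels is the only genetic change they name. P-values measure the spread between such libraries, whatever its source.

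Library totals lay between 35.6 and 43.7 M counts (M, 1e6). Col14a1 went against the labels: it lay between 45.3 and 80.1 CPM (counts scaled to the library, per M counts) with a median of 59.2 in the 24 libraries labelled KO, and between 0.261 and 4.13 with a median of 0.884 in the 24 labelled WT. Groups are therefore called by their labels throughout, and no direction below is read as an effect of losing the collagen. The pseudogene Gm5481 was at 9.78 to 28.4 CPM in libraries labelled KO, and 3 libraries labelled WT, namely WT ZT4 replicates 3 and 4 and WT ZT16 replicate 2, held 9.64 to 14.1 CPM where the other WT libraries held at most 0.216. Xist, which coats one X chromosome in female cells, reached 100 CPM in 24 libraries, 15 labelled WT and 9 labelled KO, unevenly over the groups. The tissue label held against its markers: the suprabasal keratinocyte list summed to between 19300 and 36900 CPM and the basal list to between 19200 and 32600 CPM, while the 3 endothelial markers summed to at most 1.27 CPM. Markers of other skin parts were present and varied between libraries. The sebaceous gland list summed to 464 to 1690 CPM. Sums were 6.42 to 343 CPM for the inner root sheath and hair shaft list and 2.99 to 312 CPM for the fibroblast and dermis list.

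The cornified envelope is the protein shell that replaces the plasma membrane of a keratinocyte as it dies in the outermost layer of the epidermis. Involucrin (Ivl) forms an early scaffold beneath the membrane, and loricrin (Lor), small proline-rich proteins (Sprr) and late cornified envelope proteins (Lce) are then cross-linked onto it by transglutaminases. The S100-fused type proteins filaggrin (Flg), filaggrin 2 (Flg2), hornerin (Hrnr), repetin (Rptn), cornulin (Crnn) and trichohyalin (Tchh) are encoded beside them, and filaggrin is cut into units that bundle keratin filaments and later supply the moisturising amino acids of the stratum corneum. In this set, all 44 genes lay on chromosome 3 within 1.37 Mb, from 92080271 to 93449077 on GRCm38.

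The stretches of 250 bases before the RefSeq starts (GRCm38.p6) of 5 members are shown because the results turn on them: Ivl and Lce6a followed a daily rhythm, Lor and Lce1m varied together, and Sprr2b is one of the Sprr2 genes that varied apart from them and has matches to show. Capitals mark matches to the motifs, which were searched on both strands. The letters for AP-1 were TGANTCA. Those for the core of the antioxidant response element were TGACNNNGC. The promoter box near many transcription starts was read as TATAAA. Grainyhead factors were represented by AACCNGTT. The E-box, which the clock factors bind, was searched as CACGTG.
Ivl, chr3:92573736-92573985, minus strand: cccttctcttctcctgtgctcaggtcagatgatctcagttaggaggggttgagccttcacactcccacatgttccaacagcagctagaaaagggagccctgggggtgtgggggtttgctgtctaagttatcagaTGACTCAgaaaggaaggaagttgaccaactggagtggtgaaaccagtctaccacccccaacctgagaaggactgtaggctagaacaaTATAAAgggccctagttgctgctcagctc
Lce6a, chr3:92621661-92621910, minus strand: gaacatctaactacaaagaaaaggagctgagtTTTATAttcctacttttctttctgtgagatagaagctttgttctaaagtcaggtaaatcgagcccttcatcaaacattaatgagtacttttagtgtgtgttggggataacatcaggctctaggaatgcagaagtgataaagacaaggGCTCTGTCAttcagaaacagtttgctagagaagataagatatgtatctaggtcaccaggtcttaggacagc
Lor, chr3:92083143-92083392, minus strand: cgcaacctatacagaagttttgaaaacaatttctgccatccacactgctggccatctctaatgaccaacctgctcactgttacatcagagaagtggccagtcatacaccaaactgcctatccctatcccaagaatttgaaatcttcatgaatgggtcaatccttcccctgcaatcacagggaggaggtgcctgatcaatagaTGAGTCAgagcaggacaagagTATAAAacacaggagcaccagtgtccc
Lce1m, chr3:93019062-93019311, minus strand: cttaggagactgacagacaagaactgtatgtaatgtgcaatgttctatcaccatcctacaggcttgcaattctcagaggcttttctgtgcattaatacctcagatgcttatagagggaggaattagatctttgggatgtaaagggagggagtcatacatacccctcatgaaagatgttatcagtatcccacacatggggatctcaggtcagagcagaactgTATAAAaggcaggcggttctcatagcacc
Sprr2b, chr3:92316455-92316704, plus strand: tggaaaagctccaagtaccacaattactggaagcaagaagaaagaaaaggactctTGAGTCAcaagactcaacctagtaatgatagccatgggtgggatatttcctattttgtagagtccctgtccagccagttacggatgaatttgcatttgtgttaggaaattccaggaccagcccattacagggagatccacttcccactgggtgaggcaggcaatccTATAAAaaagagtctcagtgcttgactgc
RefSeq windows of 300 bases, from 250 before to 50 after the start, were found for 40 of the 44 members and 32851 times over all genes. AP-1 letters stood in 15 of the 40 member windows, or 37.5%, against 7.8% of all windows, and TATAAA stood in 19, or 47.5%, against 13.6%. In Ivl the AP-1 match began 116 bases before the start and TATAAA 29 bases before it, and the outermost annotated start of the gene lies inside the stretch shown. Lor had both matches as well, at 48 and 27 bases, whereas Lce1m had TATAAA at 29 bases and no AP-1 match. The 7 Sprr2 members Sprr2b, Sprr2d, Sprr2e, Sprr2f, Sprr2h, Sprr2i and Sprr2k all had TATAAA at 29 bases and an AP-1 match between 193 and 198 bases before the start, and Sprr2k had another AP-1 match at 182 bases. These 7 genes are alike in sequence, so their matches are not separate cases in the counts above. Of these 7 only Sprr2b and Sprr2h were tested. Sprr2a1, Sprr2a2 and Sprr2a3 held none of the motifs in their windows. These windows end on letters close to those that stand shortly before TATAAA in Sprr2b. Bases beyond them were not searched, so a lack of matches near these genes is not shown. The E-box letters stood in 1 member window (Lce3a, 2.5%, against 7.2% of all windows), the antioxidant response element core in 8 (20.0% against 12.4%), Lce6a among them, and the Grainyhead letters in 1 (Rptn, 2.5% against 2.1%). In Lce6a both capital runs, TATAAA at 218 bases and the response element core at 71 bases, are matches on the opposite strand. Lce3e, also among the 19, had TATAAA at 243 bases before the start. Neither rhythmic member, Ivl or Lce6a, had the E-box letters in its window. A match is a run of letters and not a measured binding site.

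Together the members took between 0.077% and 0.44% of a library's counts, with a median of 0.236%. Most of that came from the scaffold and filament-binding genes, since Hrnr, Flg2, Lor and Flg held 75.9% of all member counts. Mean CPM, which is not scaled to gene length, was 791 for Hrnr, 462 for Flg2, 355 for Lor and 177 for Flg. Per kilobase of exon, which allows genes of different length to be compared, Lor led with 200 CPM per kb, ahead of Lce1m with 108, Sprr1a with 88.8, Hrnr with 70.7 and Ivl with 51.1, while the long Flg2 and Flg transcripts came to 22.2 and 9.38.

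The 13 Lce1 members all passed the filter, and Lce1m held most of their signal, with a mean of 103 CPM, and Lce1k had a mean of 0.69 CPM. Of the 6 Lce3 members, which in human skin are known for being switched on when the barrier is injured, only Lce3c passed, with a mean of 0.12 CPM. Among the small proline-rich genes, Sprr1a had a mean of 71.6 CPM or 88.8 CPM per kb, and Sprr2a1 one of 38.8 CPM or 12.9 CPM per kb, with 38.8 CPM for Sprr2a2 too. These last 2 transcripts are 99.9% identical over 2867 bases and their counts differed by at most 8 per library, so they cannot be told apart. Both rows stay in the counts over 32 members, and counts over 31, with the pair taken once, are added where they differ. Sprr2a3 is 98.9% identical to Sprr2a1, and its own count was between 37.6% and 44.9% of the count of Sprr2a1. Of 12 Sprr2 members, 5 passed the filter. The 12 members that did not pass, Sprr2d, Sprr2e, Sprr2f, Sprr2g, Sprr2i, Sprr2j-ps, Sprr2k, Lce3a, Lce3b, Lce3d, Lce3e and Lce3f, held 12 to 168 counts each over all libraries together and at most 0.0866 CPM on average.

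**Figure D1:**
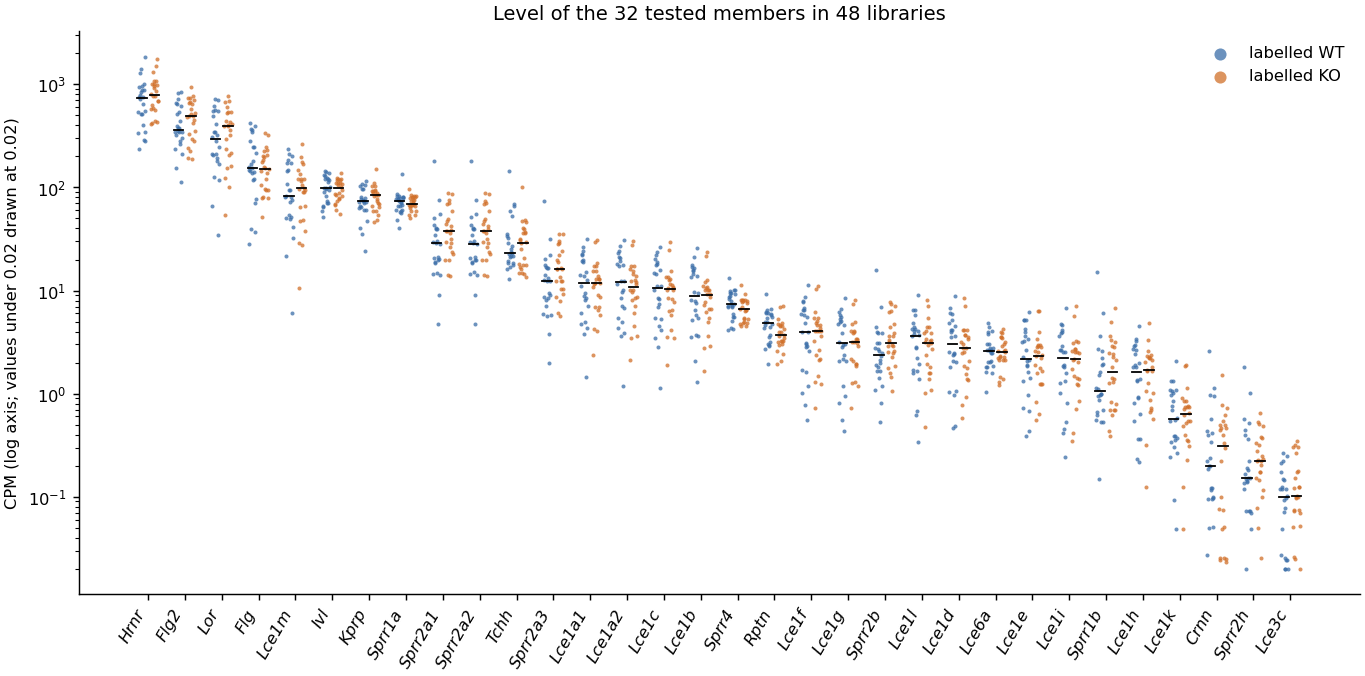
Level of each tested member in every library, in CPM on a log axis, ordered by mean level. Each point is a library, coloured by label, and the black bars are the medians of the 24 libraries of a label. Hrnr (mean 791 CPM) is at the left and Lce3c (0.12 CPM) at the right, and the points of the 2 labels lie over each other for every gene.

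Libraries of the same group differed widely for some members and little for others. The within-group standard deviation of log2 CPM ran from 0.26 for Ivl to 1.4 for Crnn over the 32 tested members, with a median of 0.90. Lor ranged from 34.4 to 772 CPM, a 22.4-fold span, and Lce1m from 6.06 to 262 CPM, a 43.2-fold span. Ivl stayed between 52.1 and 145 CPM, a 2.79-fold span, and Sprr1a between 40.5 and 135 CPM, a 3.33-fold span. In all, 22 tested members spanned more than 10-fold and 5 spanned less than 5-fold, the latter being Sprr1a, Sprr4, Ivl, Lce6a and Rptn. WT ZT20 replicate 4 held the lowest value of 13 tested members, Lor, Flg2, Kprp and most Lce1 genes among them, whereas WT ZT0 replicate 1 held the highest value of 10 and KO ZT8 replicate 1 that of 8.

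This variation followed Lor closely for many members and weakly or not at all for others. After the means of the 12 groups and of the libraries with and without Xist were removed, the 13 Lce1 members had Pearson correlations with Lor between 0.779 and 0.951 over the 48 libraries, Lce1m being the highest. Flg2 reached 0.944, Kprp, a keratinocyte proline-rich protein, 0.872, Flg 0.771, Lce6a 0.77, Hrnr 0.709 and Lce3c 0.512. In contrast, the 5 tested Sprr2 members lay between -0.022 and 0.332, Sprr1b was at 0.046, Crnn at 0.068, Tchh at 0.118, Rptn at -0.15 and Sprr4 at -0.206. Ivl was at 0.386 and Sprr1a at 0.234. Members share library depth and composition, and these 31 correlations are given as a description without a test. Leaving out the 2 libraries farthest from the median of Lor gave 0.748 to 0.932 for the Lce1 members and 0.107 to 0.346 for the Sprr2 members. Sprr1a was then at 0.458 and Rptn at 0.088.

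Distance from Lor did not order these values, though neighbouring members often had similar ones. The tested members from Sprr2a1 to Ivl, at 133 to 488 kb, had correlations of at most 0.386. Those from Lce6a to Lce1m, at 522 to 935 kb, had at least 0.512. The S100-fused type genes beyond them ran from -0.15 to 0.944. Sprr2a1, the next member after Lor at 133 kb, had a correlation of 0.007 with it, whereas Lce1m, at 935 kb and beyond the Sprr genes, Ivl and the other Lce1 genes, had 0.951, and Flg2, at 1110 kb, had 0.944. In a decomposition of the same deviations over 31 members, with Sprr2a2 left out as the copy of Sprr2a1, the first component carried 58.8% of the variance and the second 16.7%. The first took 97.9% of the variance of Lce1a1 and 80.5% of that of Lor. The second took 69.1% of that of Sprr1b and 66.9% of that of Sprr2a1, and less than 1% of that of Lor. It also took 41.4% of that of Tchh and 35.9% of that of Crnn, with the sign opposite to that of Sprr1b and Sprr2a1. The next component, with 10.9%, held more of Crnn (60.6% of its variance) and Tchh (49.9%).

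**Figure D2:**
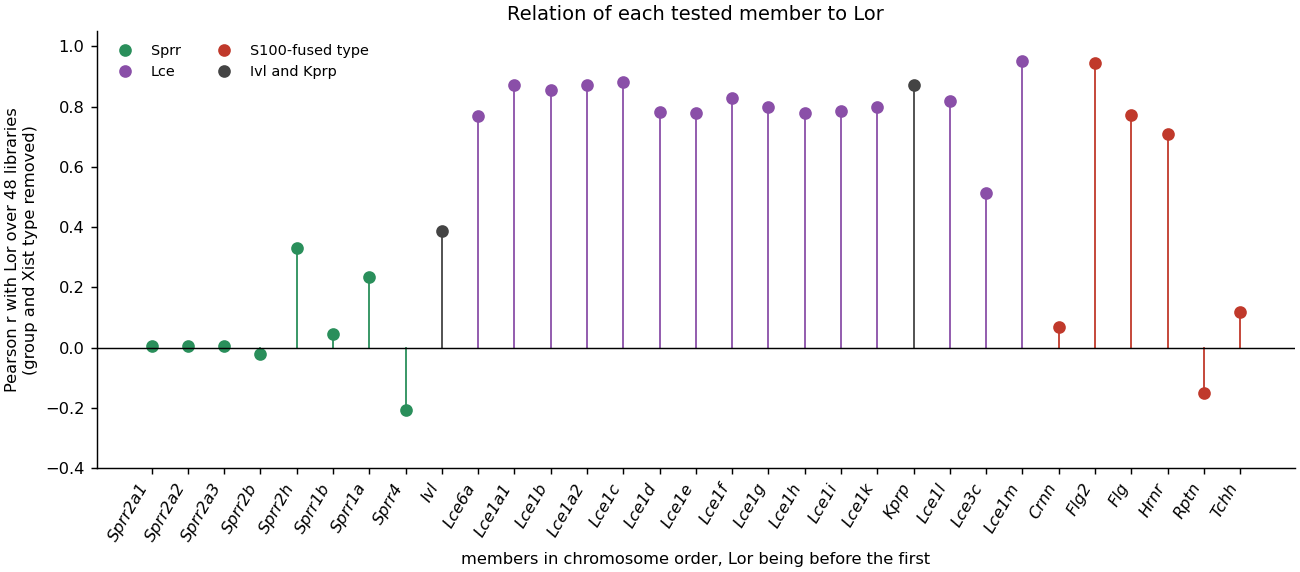
Pearson correlation of each tested member with Lor over 48 libraries, after group means and the Xist difference were removed; members stand in chromosome order and colours mark their families. The Lce1 points stand between 0.779 and 0.951, and the Sprr2 points between -0.022 and 0.332.

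For 6 pairs of single genes chosen with earlier results known, Pearson's r and Spearman's rho were tested by permuting libraries within groups, with p adjusted over the 6 relations. Flg and Flg2 varied together (r = 0.747, rho = 0.745, permutation p = 1e-05 for both, the smallest that 100000 permutations can give, adjusted p = 3e-05), with r = 0.778 in the libraries with Xist and 0.685 in the others. Tchh, which is known from the inner root sheath of the hair follicle, followed the inner root sheath keratin gene Krt71 (r = 0.947, rho = 0.945, permutation p = 1e-05, adjusted p = 3e-05). It did so in the libraries with Xist (0.951) and in the others (0.948), and at 0.938 without the 2 libraries of most extreme Krt71. The inner root sheath and hair shaft list summed to between 6.42 and 343 CPM, and its highest library, WT ZT16 replicate 4, also held the highest Tchh (145 CPM) and the highest Crnn (2.57 CPM).

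Lor rose with Krt10, the main suprabasal keratin gene, with r = 0.432 (permutation p = 0.00493, adjusted p = 0.00986) and rho = 0.381 (permutation p = 0.0162, adjusted p = 0.0324), and r = 0.397 without the 2 libraries of most extreme Krt10. Within the 24 libraries with Xist r was 0.588, and within the other 24 it was 0.169, so the pooled value rested more on the former; the difference between them was not tested. Lor and Ivl had r = 0.386 (permutation p = 0.0389, adjusted p = 0.0583) and rho = 0.335 (permutation p = 0.0446, adjusted p = 0.0669), which did not pass. Lor showed no relation that passed with the basal keratin gene Krt5 (r = -0.09, rho = -0.084, permutation p = 0.615 and 0.626, adjusted p = 0.738 and 0.751) or with the dermal collagen gene Col1a1 (r = 0.026, rho = 0.022, permutation p = 0.846 and 0.88). On log2 CPM with no means removed, the relation of Lor with Krt5 turned to r = 0.253 (permutation adjusted p = 0.163), while those with Ivl (r = 0.442, adjusted p = 0.034) and Col1a1 (r = 0.419, adjusted p = 0.0143) passed. In bulk epidermis, fewer cells of a type and less RNA per cell cannot be told apart.

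The first comparison of the design asks whether the envelope genes differ between the 2 labels. No member was called. Averaged over the 6 times, 0 of 32 members passed an adjusted p of 0.05 in edgeR's quasi-likelihood test, with p adjusted by Benjamini-Hochberg over all 17068 genes tested, where 0.34% of all genes passed. At an unadjusted p under 0.05 there was 1 member, and DESeq2 and limma-voom also called 0. The 32 differences had a median of -0.03 on the log2 scale, KO minus WT label, with 13 positive and 19 negative and a range from -0.27 (Rptn) to 0.34 (Lce3c), and the median over all genes was 0.00. For 31 of the 32 members the 95% interval lay within 1 log2 unit of 0 on either side, so that larger average differences lay outside it, while smaller ones could not be told from the spread.

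Lor, the main protein of the finished envelope by mass, shows how far libraries of a group differed. Under WT it stood at 707, 246, 168 and 118 CPM at ZT0, under KO at 544, 215, 161 and 417 CPM. At ZT4 the values were 126, 728, 561 and 346 CPM under WT and 602, 528, 401 and 393 CPM under KO. The range of WT enclosed that of KO at both times.

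At ZT8 Lor was at 212, 416, 284 and 182 CPM under WT and at 772, 545, 102 and 205 CPM under KO. At ZT12 it was at 211, 310, 65.4 and 206 CPM under WT and at 398, 674, 53.5 and 123 CPM under KO. At these 2 times the KO libraries reached both further up and further down. At ZT16 the WT values were 553, 497, 345 and 611 CPM and the KO values 297, 441, 237 and 156 CPM, and at ZT20 they were 192, 322, 549 and 34.4 CPM against 689, 326, 429 and 363 CPM. KO libraries were mostly lower at ZT16 and mostly higher at ZT20, with overlap at both.

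Of the structural genes, Lor, Ivl, Flg, Flg2 and Hrnr were not called between the labels on average. Among these only Ivl had a small standard error. Lor lay between 34.4 and 728 CPM in libraries labelled WT, with a median of 297, and between 53.5 and 772 with a median of 396 in those labelled KO, a log2 difference of 0.23 with a standard error of 0.27 (adjusted p = 0.914, edgeR). Ivl lay between 52.1 and 145 CPM with a median of 98.9 under WT and between 55.2 and 138 CPM with a median of 98.1 under KO, a difference of -0.05 ± 0.07 (SE; adjusted p = 0.938). The 2 labels overlapped over nearly their whole range for both genes.

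Flg lay between 28.0 and 424 CPM under WT, with a median of 156, and between 51.7 and 334 CPM under KO, with a median of 152. Flg2 lay between 113 and 838 CPM under WT, with a median of 364, and between 190 and 948 CPM under KO, with a median of 492. Both overlapped widely. Flg differed by -0.21 ± 0.24 (SE; adjusted p = 0.908, edgeR), Flg2 by 0.26 ± 0.19 (adjusted p = 0.851) and Hrnr by 0.20 ± 0.19 (adjusted p = 0.893). Hrnr lay between 235 and 1850 CPM under WT, with a median of 739, and between 417 and 1780 CPM under KO, with a median of 793. The smallest unadjusted p belonged to Rptn, which was lower under the KO label by 0.27 ± 0.11 (SE; adjusted p = 0.624, edgeR), and the next to Sprr4, with -0.15 ± 0.10 (adjusted p = 0.816). Neither passed.

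**Figure D3:**
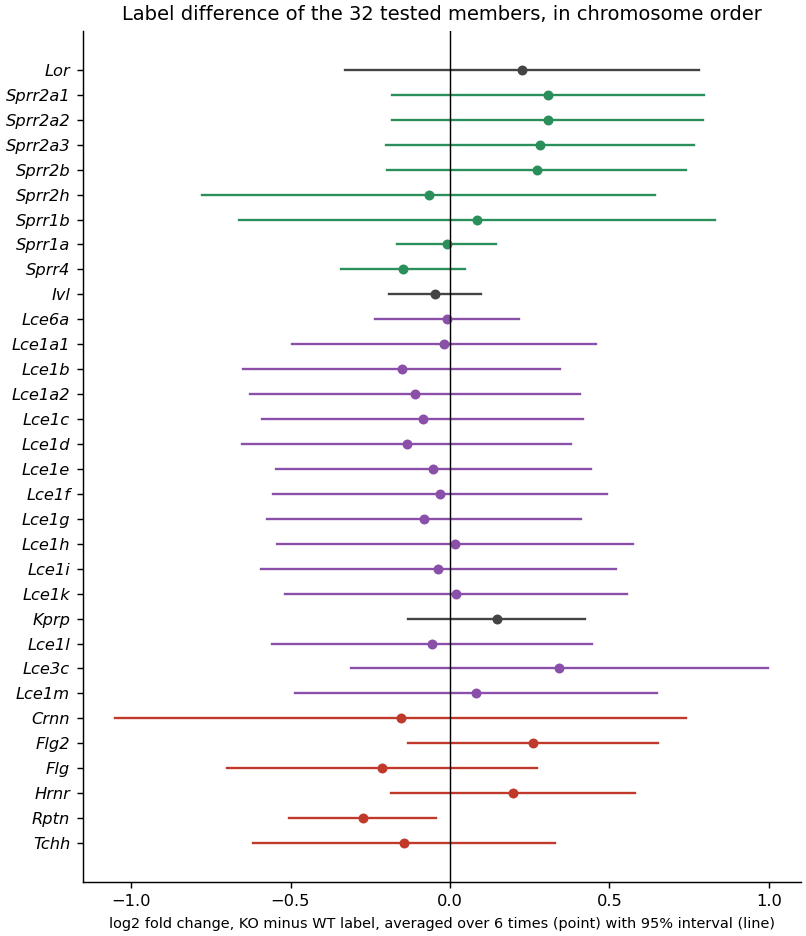
Log2 fold change of each tested member, KO minus WT label, averaged over the 6 times; points are the estimates, lines the 95% intervals, colours the families as in the plot of correlations with Lor (green Sprr, purple Lce, red S100-fused type, grey the others). Every line except that of Rptn crosses 0.

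At single times, 0 of 32 members were called at any of the 6, while the share of all genes called was 0.0527% for ZT0 and for ZT4, 0.0762% for ZT8, 0.0234% for ZT12, 0.129% for ZT16 and 0.0586% for ZT20. The numbers of members at an unadjusted p under 0.05 were 2, 1, 2, 0, 2 and 3 in that order, and DESeq2 and limma-voom called 0 at each time. The median of the members moved from time to time, being -0.44, -0.04, 0.40, -0.36, -0.68 and 0.47 in order of time, beside a median of 0.00 over all genes at each. A single member's standard error at one time had a median of about 0.6, and the members follow each other across libraries, so these medians rest on 8 libraries and not on 32 separate genes. A joint test for a label difference that varies over the day gave 0 members and 0% of all genes in edgeR (0 genes, with 1041 at an unadjusted p under 0.05; DESeq2 called 26 genes and 0 members), Sprr4, Lce3c and Sprr2b having the lowest p (adjusted p = 0.863, 0.865 and 0.865).

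Some members nevertheless had groups that did not overlap. At ZT4, Sprr2a1 stood at 18.6, 40.2, 28.9 and 39.4 CPM in the libraries labelled WT and at 49.6, 87.5, 74.7 and 70.0 CPM in those labelled KO. At ZT20 it stood at 4.73, 21.1, 8.99 and 20.0 CPM under WT and at 31.8, 41.9, 28.8 and 38.9 CPM under KO. Every KO value was above every WT value at both times, and this held for Sprr2a2, Sprr2a3 and Sprr2b too, or 3 of 31 members with the copy taken once. Over all genes tested, 1.46% lay so at ZT4 and 3.34% at ZT20. These members were named after their values were seen and share sequence or vary together. Sprr2b had the lowest p at ZT4 (1.18 ± 0.56, SE; adjusted p = 0.81, edgeR), followed by Sprr2h (1.72 ± 0.87) and Sprr2a3 (1.15 ± 0.58), and at ZT20 the lowest were Sprr2a1, its copy and Sprr2a3 (1.26 ± 0.60). The log2 differences of Sprr2a1 were 1.15 ± 0.59 (SE; adjusted p = 0.841, edgeR) and 1.37 ± 0.61 (adjusted p = 0.602), neither of which passed.

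Neither contrast was even in the libraries it held. At ZT20 all 4 libraries labelled WT and 1 of 4 labelled KO had Xist, and with a term for Xist the difference of Sprr2a1 was 0.88 ± 0.57 (adjusted p = 1.0) and the median of the members 0.27. The 7 fibroblast and dermis markers had a median log2 difference of 2.42 at ZT20 and the 6 sebaceous gland markers one of -1.26, none of them called. At ZT4 the dermal markers had a median of 1.38 and the hair markers one of 0.85, with none called. At that time 2 WT libraries and 1 KO library had Xist, and 2 of the WT libraries were among the 3 with high Gm5481; without those 3 the difference was 1.26 ± 0.79 (adjusted p = 0.533). The part of these markers in the Sprr2 differences was not tested.

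At ZT12 the Sprr2a1 values were 14.3, 29.5, 20.7 and 180 CPM under WT and 19.7, 29.7, 38.1 and 43.8 CPM under KO, a difference of -0.89 ± 0.59 (SE; adjusted p = 1.0, edgeR) in which WT ZT12 replicate 4 stood far above the rest. The lowest p at that time were those of Sprr1b (-1.84 ± 0.92), Sprr2h (-1.42 ± 0.78) and Sprr2b (-0.99 ± 0.56), all at an adjusted p of 1.0. At ZT0 the lowest were Sprr1a (-0.44 ± 0.19), Sprr4 (-0.53 ± 0.24) and Tchh (-0.70 ± 0.57), and at ZT8 Lce3c (1.96 ± 0.80), Lce1k (1.44 ± 0.68) and Lce1c (1.10 ± 0.62), none of which passed (adjusted p = 1.0). Lce3c, at 0.102 to 0.348 CPM under KO and 0 to 0.092 CPM under WT at ZT8, did not overlap, as did 1.73% of all genes in that direction, and these are a few reads per library.

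At ZT16 the direction was the opposite, and 7 members lay lower in all 4 libraries labelled KO than in all 4 labelled WT: Sprr4, Rptn, Lce1a1, Lce1a2, Lce1b, Lce1c and Lce1g. Over all genes tested 1.34% lay so, and the 5 Lce1 genes vary together across libraries, so that they are not separate cases. Rptn, an S100-fused type protein with a place in the envelope, was at 6.16, 6.04, 9.18 and 5.47 CPM under WT and at 4.73, 3.99, 2.93 and 3.64 CPM under KO. Sprr4 was at 13.2, 8.7, 8.93 and 9.52 CPM against 8.05, 7.82, 8.09 and 6.93 CPM, and Lce1a1 at 22.4, 22.6, 19.2 and 18.9 CPM against 11.6, 17.1, 11.9 and 6.96 CPM. Rptn differed by -0.81 ± 0.28 (SE; adjusted p = 0.355, edgeR), Sprr4 by -0.39 ± 0.23 (adjusted p = 0.623) and Lce1a1 by -0.80 ± 0.57 (adjusted p = 0.695). Lce6a (-0.62 ± 0.27, adjusted p = 0.454) and Tchh (-1.15 ± 0.58, adjusted p = 0.528) were next to Rptn in p. None of these passed. Xist was in 2 libraries labelled WT and 1 labelled KO at this time, and the 10 tested inner root sheath and hair shaft markers, like the 7 dermal ones, had a median log2 difference of -1.97, with no marker called; their part in the result was not tested.

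The second comparison asks whether the envelope genes change over the day. Most did not pass in edgeR. The F test of equal time means over both labels called 4 of 32 members, or 12.5%, against 45% of all genes tested. The 4 were Ivl (adjusted p = 1.29e-06, edgeR), Lce6a (0.00104), Rptn (0.00721) and Sprr4 (0.0231), which are 4 of the 5 members with the narrowest span across libraries. The count rose above 1.5 times the 4 when one of 5 libraries was left out: 7 without KO ZT8 replicate 1, 7 without WT ZT12 replicate 1, 8 without WT ZT12 replicate 4, 9 without WT ZT20 replicate 3 and 12 without WT ZT0 replicate 1. DESeq2 called 7 members beside 8501 of all genes, and limma-voom 16 members, 12 of them Lce1, beside 7725 of all genes. With the Sprr2a1 pair taken once these were 22.6% and 51.6% of 31 members. The low share of members called in edgeR was therefore not found in limma-voom. All of these sets held the 4 named. Without WT ZT16 replicate 1 Sprr4 did not pass (adjusted p = 0.0534, edgeR).

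Ivl, the early scaffold of the envelope, was lowest at ZT12. Its 8 libraries ran from 81.8 to 139 CPM with a median of 104 at ZT0, and from 99.6 to 143 CPM with a median of 121 at ZT4. They ran from 55.2 to 97.1 CPM with a median of 78.2 at ZT8 and from 52.1 to 85.5 CPM with a median of 65.6 at ZT12. They were back at 73.9 to 145 CPM with a median of 105 at ZT16 and at 70.1 to 124 CPM with a median of 116 at ZT20. Every library at ZT8 and at ZT12 lay below every library at ZT4, under both labels.

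A cosine with a period of 24 h passed for Ivl in each label separately: its amplitude (peak above mean, in log2 units) was 0.38 ± 0.06 (jackknife SE) in the 24 libraries labelled WT (adjusted p = 0.0114, edgeR) and 0.35 ± 0.06 in the 24 labelled KO (adjusted p = 0.0193). Over both labels the amplitude was 0.37 ± 0.04, a 1.66-fold rise from trough to peak, with the peak at 23.0 ± 0.4 h (SE; adjusted p = 9.47e-05). Ivl was the only member called in either label, 1 of 32 in each, against 11.6% of all genes in WT and 12.2% in KO. Leaving out WT ZT0 replicate 1 or WT ZT16 replicate 4 made the WT count 2. Next in p were Rptn (adjusted p = 0.178) and Lce6a (0.308) in WT, and Lce6a (0.134) and Rptn (0.347) in KO, none of which passed.

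Over both labels 2 of 32 members were rhythmic, or 6.25%, against 26.6% of all genes. Besides Ivl this was Lce6a, which follows Ivl in chromosome order among the members, though other genes may lie between them. Lce6a ran from 2.88 to 4.4 CPM with a median of 3.68 at ZT4 and from 1.03 to 2.56 CPM with a median of 1.72 at ZT12, where no library reached the lowest of ZT4. Its amplitude was 0.33 ± 0.07, a 1.58-fold rise, with the peak at 1.7 ± 0.8 h (SE; adjusted p = 0.0181, edgeR).

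The other 2 members that changed between times had no 24 h cosine that passed. Rptn was lowest at ZT8, at 1.96 to 4.84 CPM with a median of 3.1, and highest at ZT0 and ZT16, at 3.46 to 7.1 CPM with a median of 5.16 and at 2.93 to 9.18 CPM with a median of 5.1 (24 h rhythm adjusted p = 0.161). Sprr4 was highest at ZT16, at 6.93 to 13.2 CPM with a median of 8.39, and lowest at ZT20 and ZT8, with medians of 5.74 and 5.83 CPM (24 h rhythm adjusted p = 0.728). Libraries of different times overlapped for both.

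Flg2 ran from a median of 282 CPM at ZT12 to 622 CPM at ZT4 and Flg from 123 CPM at ZT0 to 194 CPM at ZT16, and neither passed the test between times (adjusted p = 0.351 and 0.328, edgeR). Lor, at medians of 230, 464, 248, 208, 393 and 344 CPM from ZT0 to ZT20, had an amplitude of 0.18 ± 0.16 (SE) over both labels and did not pass (adjusted p = 0.794). Hrnr had medians of 904 CPM at ZT4, 478 CPM at ZT12 and 930 CPM at ZT20, and its amplitude of 0.33 ± 0.14 (SE) did not pass (adjusted p = 0.186). No member's rhythm differed between the labels (0 of 32; 0% of all genes, 0 genes in edgeR; the lowest p among members were those of Rptn, Sprr2b and Sprr2h, adjusted p = 1.0). All 14 core clock genes were called in both tests, with the peak of Arntl, which encodes BMAL1, at 23.6 ± 0.1 h, close to the hour of Ivl, and that of Dbp at 10.8 ± 0.1 h.

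**Figure D4:**
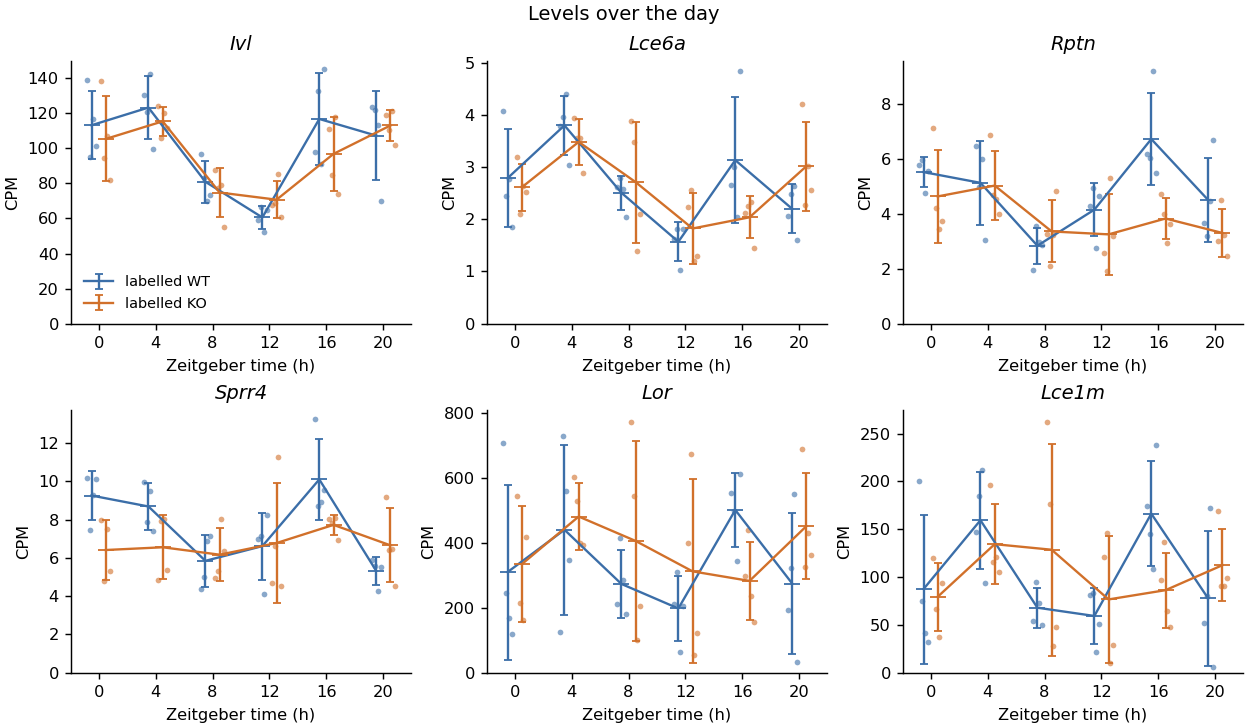
Levels in CPM by Zeitgeber time for the 4 members that changed between times (Ivl, Lce6a, Rptn, Sprr4) and for Lor and Lce1m, which did not pass; points are libraries, lines join the means of 4 libraries per label and bars are 1 SD. Ivl falls to medians of 78.2 CPM at ZT8 and 65.6 CPM at ZT12 over both labels together. Libraries of a time spread more widely for Lor (53.5 to 674 CPM at ZT12) and Lce1m (27.7 to 262 CPM at ZT8).

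The genes that assemble the envelope and its surroundings were set beside the members. In the list of cross-linking and scaffold genes, 0 of 12 differed between the labels on average and 4 changed over the day: Tgm3 and Tgm5, which encode transglutaminases, Ppl, which encodes periplakin, and Dsg1a, which encodes a desmosomal cadherin. Ppl and Tgm3 were rhythmic over both labels (adjusted p = 7.35e-06 and 9.49e-05, edgeR), Tgm5 too. Of the 12 filaggrin processing genes, 0 differed between the labels and 4 changed over the day, Spink5, Hal, Prss8 and Asprv1 (adjusted p between 0.0383 and 0.0493). The 6 suprabasal keratin genes gave 0 and 0.

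Of 15 transcription factors of keratinocyte differentiation, 0 differed between the labels and 7 changed over the day, Nfe2l2, Klf4, Grhl1 and Grhl3 among them, with 5 rhythmic, led by Nfe2l2 (adjusted p = 0.00027, edgeR). Of 17 tested other genes of the complex, such as the S100 genes, 6 changed over the day, led by S100a4 (adjusted p = 0.00113), and 1 differed between the labels: S100a8, an alarmin of inflamed skin, was lower under KO by 1.52 ± 0.29 on the log2 scale (SE; adjusted p = 0.00298) at a mean of 0.388 CPM. S100a9, in the same list, was not called between the labels. These lists were chosen with earlier results known. Their shares can be read against the 0.34% of all genes called between the labels on average, the 45% called over the day and the 26.6% rhythmic over both labels.

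The libraries with and without Xist were compared as a check, since the labels give no sex and the 24 and 24 libraries were spread unevenly over the groups. The Y-linked genes Ddx3y, Uty, Eif2s3y and Kdm5d were all called lower in the libraries with Xist. The division therefore reads as one by sex, which the labels do not state. With the 12 group means in the fit, 8 of 32 members, or 25%, were lower in the libraries with Xist and 0 higher (7 of 31, or 22.6%, with the Sprr2a1 pair taken once), against 37.7% of all genes called and 18.7% called lower. Hrnr was the clearest: it lay between 538 and 1850 CPM with a median of 946 in the libraries without Xist and between 235 and 999 CPM with a median of 534 in those with it, where 22 of 24 lay below the median of the former, a log2 difference of -0.79 ± 0.17 (SE; adjusted p = 0.000437, edgeR).

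The others called were small proline-rich genes and Lce6a. Sprr1b, which is known for its induction by stress, had medians of 1.98 and 0.785 CPM without and with Xist (-1.20 ± 0.39, SE; adjusted p = 0.0145, edgeR) and Sprr2a1 medians of 39.5 and 20.9 CPM (-0.73 ± 0.25, adjusted p = 0.0211). Sprr2h (-1.04 ± 0.35), Sprr2a2 (-0.73), Sprr2a3 (-0.71) and Sprr2b (-0.68) passed as well, as did Lce6a (-0.29 ± 0.12, adjusted p = 0.0425). Ranges overlapped for all of these members.

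Lor, with medians of 416 and 213 CPM, did not pass in edgeR (-0.64 ± 0.28, adjusted p = 0.0718), but was among the 9 members called by DESeq2 and by limma-voom. Ivl lay between 55.2 and 145 CPM without Xist and between 52.1 and 143 CPM with it. Without WT ZT0 replicate 1, which has no Xist and high values of many members, 3 of the 8 passed, Hrnr and the Sprr2a1 pair, or 2 with the pair taken once; without WT ZT12 replicate 3, Sprr2b did not pass (adjusted p = 0.0508), and Lce6a did not pass in 21 of 48 fits that each left out one library.

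Markers of other cells moved with the same division. All 6 sebaceous gland genes were higher in the libraries with Xist, with a median log2 difference of 1.54, and their summed level was 712 to 1690 CPM against 464 to 869 CPM. All 7 fibroblast and dermis genes were lower, with a median of -1.80, and their summed level was 2.99 to 12.7 CPM against 6.33 to 312 CPM. The suprabasal keratin genes Krt1, Krt10, Krt2 and Krt78 were also lower, 4 of 6 in that list, Krt1 by 0.79 ± 0.08 (SE; adjusted p = 2.02e-10, edgeR), and the list summed to 17300 to 29200 CPM against 23500 to 33800 CPM. Of the wound and stress keratinocyte markers, Krt6a, Krt6b and Krt16 were lower, 3 of 4, with sums of 2200 to 3010 CPM against 2100 to 3740 CPM, and of the basal keratinocyte markers 4 of 7 were lower. Langerhans cell markers were higher, 4 of 5, with sums of 308 to 546 CPM against 214 to 413 CPM, and so were T cell markers, 4 of 5, with 62.3 to 149 CPM against 41.9 to 105 CPM. The part of these cells in the members' differences was not tested. Covariates were run only for suprabasal keratin genes, some of them lower with Xist themselves, and for the dermal and hair lists. A count that changes with them does not give the part of a cell type. With the mean of 4 suprabasal keratin genes as a covariate, 0 members were called, Hrnr then being at -0.27 (adjusted p = 0.335). With covariates for the dermal and hair lists 8 were called, 7 of them among the 8 above.

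**Figure D5:**
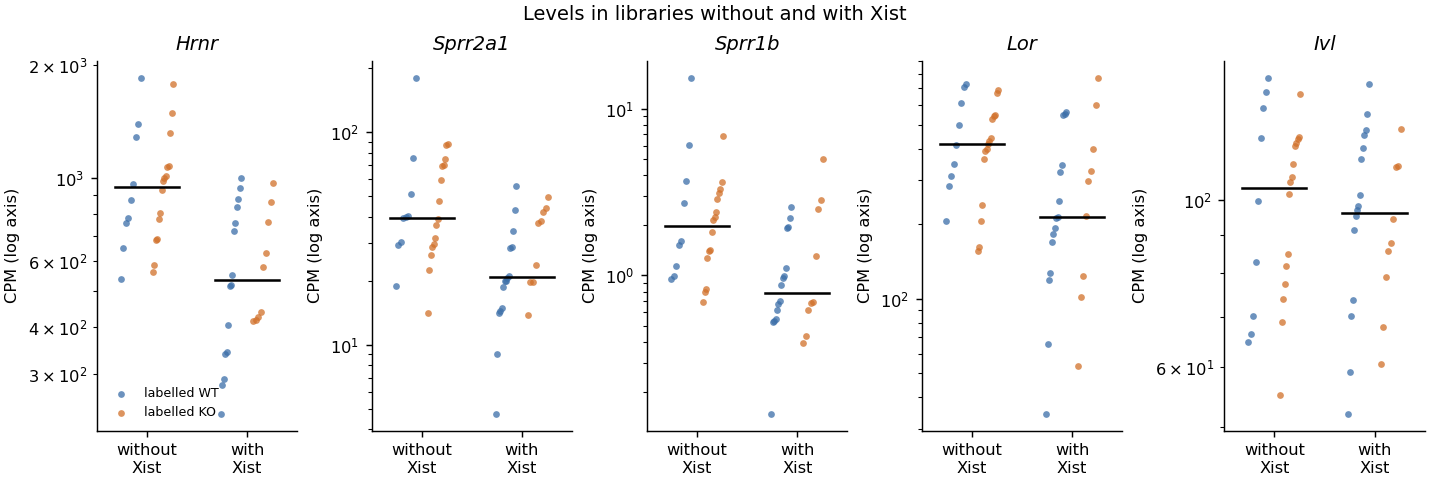
Levels in CPM on log axes of Hrnr, Sprr2a1, Sprr1b, Lor and Ivl in the 24 libraries without and the 24 with Xist; points are libraries coloured by label and black bars are medians. The bar of Hrnr drops from 946 to 534 CPM, while Ivl covers the same range in both.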

How the data were processed

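Poly(A) RNA of epidermal cell suspensions was sequenced from 48 libraries, 4 in each of 12 groups of label and time. The authors deposited raw counts per Entrez gene ID, and the submitters' processing notes name the GRCm38 (mm10) build, featureCounts, STAR 2.7.10a and Trim Galore. Their order, the annotation and any use of strand: not given in the sources used here. Of 27179 IDs, 1886 had no symbol.

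The counts were analysed with edgeR 4.0.16 in R 4.3.3: filterByExpr kept 17068 genes, TMM factors lay between 0.919 and 1.07, and quasi-likelihood tests over all 48 libraries used 12 group means, a 24 h cosine within labels, or an added term for Xist at 100 CPM or more. P-values were adjusted by Benjamini-Hochberg over all 17068 genes at a threshold of 0.05. Correlations used log2 CPM (prior count 2) and 100000 two-sided permutations within groups, in SciPy 1.17.1. Standard errors of amplitude and peak come from the jackknife over libraries. Alternatives used DESeq2 1.42.0 and limma-voom (limma 3.58.1), other scalings and filters, a replicate block, covariates and each library left out; the latter kept the genes and dispersion trend of the full fit. The tests were tried on simulated counts first.

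The members and lists were chosen with earlier results of these data known. By rule, values are given for Lor, Ivl, Flg, Flg2, Hrnr and up to 8 called members per test, or the 3 with the lowest p where fewer than 3 were called, and up to 4 called genes of each list; other members are given by family, and groups over 5 libraries by range and median, with every library only where a contrast turns on it. Otherwise, members without overlap between groups and single libraries that stand apart were named after their values were seen. Totals of 35.6 to 43.7 M counts (M, 1e6) bound the precision of low members.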

Additional observations from a re-analysis of the deposited data

Results flagged for a closer look

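Over 13 named members and 12 groups of 4 libraries, 156 sets of 4 values were checked for a library far from the other 3, and 7 held one by Dixon's test. Chance flags about 1 in 20 such sets. Several of the 7 fell in the same library, so the count alone does not say whether they arose by chance. Sprr2a1, Sprr2a3 and Sprr2b share sequence or vary together and are not separate cases. They stood apart in the same library, WT ZT12 replicate 4, at 180, 74.3 and 15.9 CPM, and so did Sprr1b, at 15.3 CPM. That library also held the highest summed level of the 4 wound and stress keratinocyte markers, at 3740 CPM against 2590, 2510 and 2300 CPM in the others of its group; its part in these values was not tested. Sprr1b stood apart in WT ZT8 replicate 2 as well, at 3.66 CPM, and Sprr2h in WT ZT0 replicate 1, at 1.02 CPM. Flg was low in WT ZT12 replicate 3, at 28.0 CPM.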

How the results depend on the processing

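The comparisons between labels called 0 members under every alternative run. Of 387 values recomputed under alternatives other than leaving out a library, 365 kept their direction and side of the threshold, 13 lost the call, 2 gained one, 5 counts moved and 2 reversed. The 4 members called between times became 7 in DESeq2 (8501 of all genes), 16 in limma-voom (7725 of all genes) and 3 to 12 with single libraries left out. For the 24 h rhythm the WT count was 1 to 2 with libraries left out, and the KO count 2 with no filter on low counts. The 8 members called by Xist became 0 with the suprabasal keratin covariate and 3 to 10 with single libraries left out. On raw log2 CPM the relation of Krt5 with Lor reversed to 0.253, and those of Lor with Ivl (0.442) and of Col1a1 with Lor (0.419) passed. The averaged label difference of Hrnr, 0.20, became -0.05 with the suprabasal keratin covariate. The cause of these changes was not tested. Pairing by replicate number was not seen over the whole series: 11 of 24 pairs of same-numbered libraries had correlations of their deviations over 0.1, with a median of 0.0915 and a range from -0.365 to 0.636. Only group means were removed, so these correlations also carry the Xist division, and pairing apart from it was not tested. All 4 pairs at ZT0 and 5 of 6 pairs of replicate 1 were over 0.1, and 0 of 4 pairs at ZT20; at ZT0 the block left 0 members called, as without it. With the replicate block, 11 members were called between times and 7 by Xist, 4 of them among the 8. Depth limits the 12 untested members and Lce3c, which rest on a few counts per library.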
